A study of Mus musculus with 18 samples.

Results

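The genes described here are 10 genes used as markers of undifferentiated mouse embryonic stem cells (ESCs): Pou5f1, Nanog, Zfp42, Esrrb, Dppa5a, Utf1, Tdgf1, Lin28a, Lin28b and Klf4. They were chosen, with earlier results of these data known, as a gauge of how much of the ESC programme was left in differentiating cultures, and each was found by its Entrez identifier, 10 of the 27179 genes in the count tables. RNA was sequenced from embryoid bodies (aggregates of ESCs) that were patterned to spinal motor neurons (MNs) with retinoic acid and SAG, a Hedgehog pathway agonist. There were 18 libraries, 3 for each of 6 groups, and the study describes each set of 3 as separate differentiations, so the p-values measure the spread between differentiations of a single line. The day 2 progenitors came from the Ainv15(iCre) line after 2 days of RA and SAG, without doxycycline (Dox). The day 4 control came from the Ainv15(iFlag.Hoxc6) line after 4 days of RA and SAG, also without Dox. The iHoxc6, iHoxc8, iHoxc9 and iHoxc10 groups were day 4 cells of 4 lines treated with Dox for the last 48 h. Each of these lines carried 1 Flag-tagged, Dox-inducible Hox transgene as a single copy at the HPRT locus, so each group stands for a single engineered line.

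An undifferentiated ESC sample was not analysed here, so the levels below have no upper reference and were not turned into a share of residual cells. In bulk RNA, fewer cells that express a gene and less RNA per cell cannot be told apart. The day 2 libraries were sequenced in a run of their own, as were the iHoxc8 libraries, whereas control shared a run with iHoxc6 and iHoxc9 shared one with iHoxc10. Day, line and run therefore cannot be told apart in any comparison of day 2 with day 4. Library totals were 24498630 to 33168533 counts. Levels are given in CPM, the counts of a gene per unit of sequencing depth, with TMM factors that correct for library composition. A count of 3, used as the floor, stood for 0.0904 to 0.122 CPM. Intervals and floors cover counting error only. The induced Hox genes fitted their labels: each was at 213 to 532 CPM in its own Dox-treated group and at most at 49.4 CPM in the other groups. Counts per gene do not separate the transgene from the endogenous gene. Neuronal markers rose in the day 4 groups (10 of 10 genes against day 2 in control), and their summed level was 290 to 587 CPM at day 2 and 5344 to 7501 CPM at day 4.

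Pou5f1 (Oct4), Nanog, Esrrb and Klf4 encode transcription factors of the network that keeps ESCs undifferentiated. Zfp42 (Rex1), Dppa5a and Utf1 are classical markers that are shut off when that network dissolves, and Tdgf1 (Cripto) encodes a co-receptor for the ligand Nodal. Lin28a and Lin28b encode paralogous RNA-binding proteins that block the maturation of let-7 microRNAs. They are expressed in early neural progenitors as well as in ESCs, and so they are not markers of ESCs alone.

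Of the 10 genes, 7 fell from day 2 to day 4 in every one of the 5 day 4 groups: Pou5f1, Zfp42, Dppa5a, Utf1, Klf4, Lin28a and Lin28b. Among all 20944 genes tested, 21.2% fell in control and up to 26.1% in the iHox groups. The share that fell in all 5 groups was not counted. Nanog was already at 1 count in each day 2 library, and Tdgf1 was counted in only 1 of the 3 day 2 libraries. Esrrb did not pass the test in any day 4 group. At day 4, the LIN28 pair alone stayed at or above 1 CPM in the group means, compared with 6 genes at day 2. Pou5f1, Nanog, Zfp42, Dppa5a, Utf1 and Tdgf1 were at 0.262 CPM or less in every day 4 library, whereas Esrrb was at 0.280 to 0.963 CPM and Klf4 at 0.156 to 0.593 CPM. In the fit of all libraries without a replicate block, the calls between day 4 groups were for Lin28a, lower in iHoxc8, iHoxc9 and iHoxc10 than in control, and for Lin28b, higher in iHoxc9 than in control and in iHoxc6. When replicate numbers were fitted as a block, the Lin28b call against control was lost (adjusted p = 0.0138) and Lin28a was also lower in iHoxc9 than in iHoxc6 (adjusted p = 0.00485). The plot of levels by library shows these values.

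**Figure D1:**
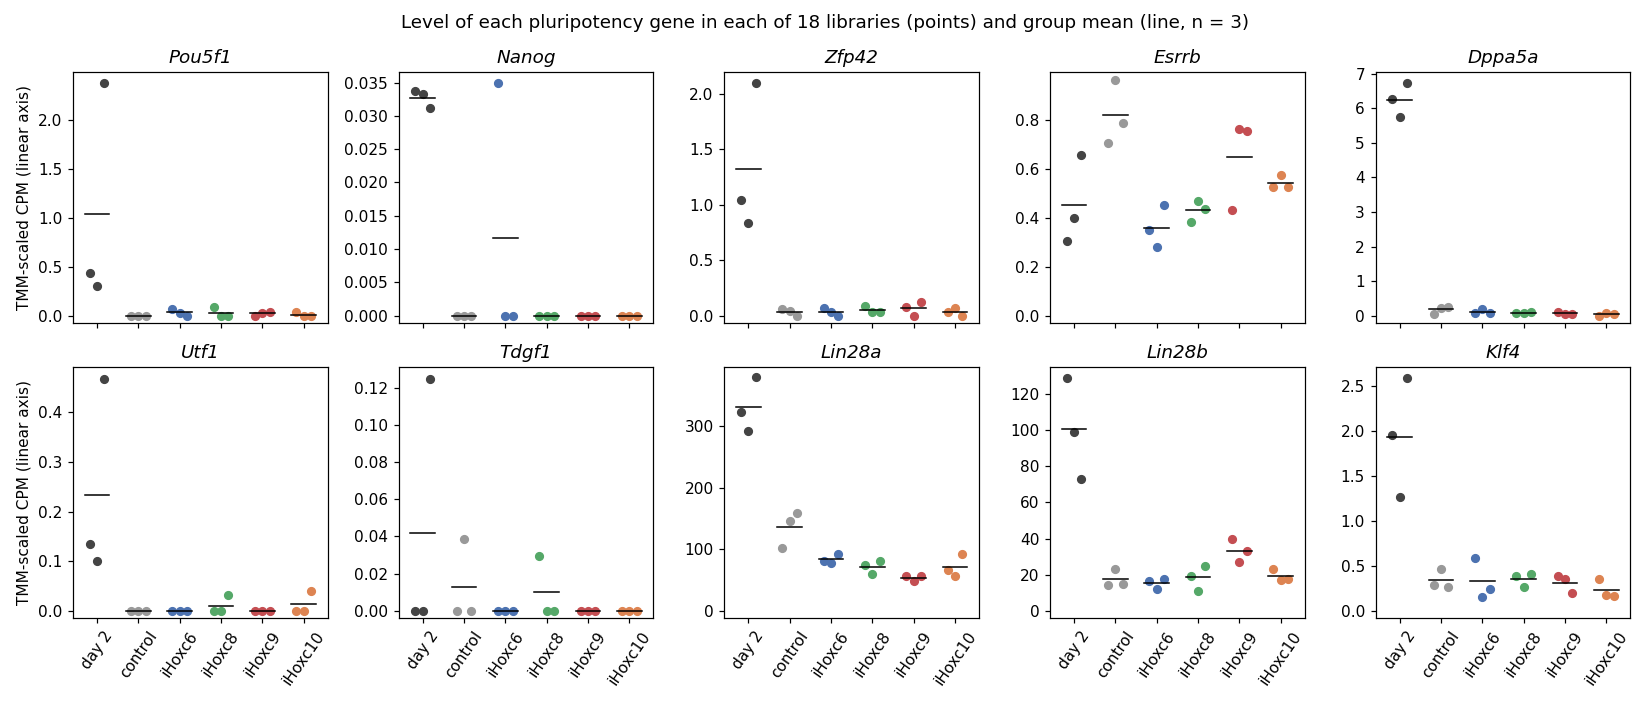
TMM-scaled CPM (linear axis, a different range for each gene) of the 10 pluripotency genes in 18 libraries. Points are single libraries and lines are the means of 3. Day 2 lies above all day 4 libraries for Pou5f1, Zfp42, Dppa5a, Utf1, Klf4, Lin28a and Lin28b, and Esrrb is highest in control at 0.707 to 0.963 CPM.

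Read per kilobase of exon, so that genes can be compared, the mean day 2 levels spanned a wide range. Lin28a was at 82.9 CPM per kilobase, followed by Lin28b at 11.1 and Dppa5a at 10.1. The next were Zfp42 at 0.703, Klf4 at 0.635 and Pou5f1 at 0.461 CPM per kilobase. Utf1 was at 0.191, Esrrb at 0.0749, Tdgf1 at 0.0159 and Nanog at 0.0146 CPM per kilobase. The core factors Pou5f1 and Nanog were thus far below the LIN28 pair and Dppa5a in these progenitors.

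Pou5f1 (GRCm38, chr17:35506032-35510777), the central factor of the network, was at 0.438, 0.300 and 2.37 CPM in the 3 day 2 libraries, or 13, 9 and 76 counts. It had 0 counts in all 3 control libraries, and the other day 4 libraries had 0 to 3 counts each. Every day 2 library was above every day 4 library. Against control, whose counts were all 0, day 2 was at least 29.8-fold higher (floor of 3 counts over the group). The day 2 sum was 31.9-fold that of iHoxc6 (95% counting interval 10.6 to 157), 34.1-fold that of iHoxc8 (11.3 to 168), 45.2-fold that of iHoxc9 (12.2 to 379) and 86.7-fold that of iHoxc10 (15.2 to 3458). Pou5f1 fell in all 5 tests, with adjusted p from 5.94e-05 for control to 0.000191 for iHoxc6 (edgeR quasi-likelihood test, Benjamini-Hochberg adjustment). The size rests in part on 1 library, because 77.6% of the day 2 counts came from replicate 3. Without it, the log2 fold change went from -4.80 to -3.30 in iHoxc6 and from -5.99 to -4.49 in iHoxc10, and all 5 falls still passed (adjusted p 0.000266 to 0.00247). Without replicate 1 of the day 4 group, it went to -5.67 in iHoxc6, from -4.89 to -7.93 in iHoxc8 and to -7.94 in iHoxc10. Nanog (chr6:122707489-122714633), a homeodomain factor of the same network, had 1 count in each day 2 library, 1 in iHoxc6 replicate 1 and 0 in the other 14 libraries. Both days were under the floor, so no fold is given.

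Zfp42 (chr8:43295067-43307009), a zinc finger gene used as a marker of naive ESCs, was at 1.04, 0.832 and 2.09 CPM at day 2. The day 4 libraries were at 0 to 0.119 CPM, with 3 to 5 counts per group in all. No day 4 library reached the lowest day 2 library. The day 2 sum was 37.5-fold that of control (12.5 to 184) and 22.7-fold to 40.0-fold that of the iHox groups. Zfp42 fell in all 5 tests, with adjusted p from 1.68e-06 for iHoxc6 to 5.18e-06 for iHoxc9. With so few counts at day 4, single libraries moved its log2 fold change, from -5.06 to -5.84 without control replicate 1, from -5.14 to -6.01 without iHoxc6 replicate 1, from -4.56 to -5.18 without iHoxc8 replicate 1, from -5.02 to -5.88 without iHoxc10 replicate 2, and from -4.37 to -3.69 or -5.16 without iHoxc9 replicate 2 or 3.

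Dppa5a (chr9:78367052-78368199), which encodes a KH-domain protein of ESCs and early germ cells, was the highest at day 2 after the LIN28 pair, at 6.27, 5.76 and 6.72 CPM. Unlike Pou5f1 and Zfp42, it was close to equal in the 3 day 2 libraries. It was at 0.0642, 0.231 and 0.262 CPM in control and at 0 to 0.187 CPM in the iHox libraries. The day 2 sum was 35.0-fold that of control (21.0 to 62.9), 56.1-fold that of iHoxc6 (30.3 to 118), 74.9-fold that of iHoxc8 (37.7 to 174), 88.3-fold that of iHoxc9 (40.3 to 242) and 169-fold that of iHoxc10 (57.6 to 823). All 5 falls passed, with adjusted p from 7.59e-12 for iHoxc10 to 1.06e-10 for control. The log2 fold change of iHoxc10 against day 2 went from -7.24 to -8.10 without iHoxc10 replicate 2, and that of iHoxc6 from -5.76 to -6.40 without iHoxc6 replicate 2. Between iHoxc10 and control the log2 fold change was -2.16 (SE 0.72, adjusted p = 0.032), which missed the threshold, and the libraries overlapped. Without control replicate 1, that difference was -2.60 (adjusted p = 0.00901).

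Utf1 (chr7:139943856-139945112), a chromatin-associated gene of ESCs, had 4, 3 and 15 counts at day 2, at 0.135, 0.0998 and 0.469 CPM. It had 0 counts at day 4 except for 1 count in iHoxc8 replicate 3 and 1 in iHoxc10 replicate 3. Day 2 was at least 6.70-fold higher than control, 7.16-fold than iHoxc6 and 6.77-fold than iHoxc9. The falls passed in all 5 groups (adjusted p 0.00208 to 0.00776), but with DESeq2 none of them did (adjusted p 0.0335 to 0.102), nor without day 2 replicate 3 (0.0131 to 0.0599). Single calls were also lost in fits of the compared libraries alone (all but iHoxc8), without control replicate 1 (control), iHoxc8 replicate 1 or 2 (iHoxc8), iHoxc9 replicate 2 (iHoxc9), and iHoxc8 replicate 3 or any iHoxc10 library (iHoxc10). Tdgf1 (chr9:110939608-110946158) had 4 counts in day 2 replicate 3, 1 in control replicate 2, 1 in iHoxc8 replicate 1 and 0 elsewhere, and no difference passed.

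Klf4 (chr4:55527137-55532475), a Krüppel-like factor that is also used in other tissues, was at 1.95, 1.26 and 2.59 CPM at day 2. It was at 0.289, 0.462 and 0.262 CPM in control and at 0.156 to 0.593 CPM in the iHox libraries. Day 2 lay above all 15 day 4 libraries, but Klf4 kept detectable counts at day 4. Its log2 fold change from day 2 was -2.52 in control (SE 0.41, adjusted p = 1.82e-05) and -2.44 to -3.03 in the iHox groups, where that of iHoxc6 went from -2.56 to -3.27 without iHoxc6 replicate 1. The day 4 groups did not differ in Klf4 beyond their spread.

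Esrrb (chr12:86361117-86521628), an orphan nuclear receptor of the naive network, did not follow the others. It was at 0.303, 0.399 and 0.656 CPM at day 2 and at 0.707, 0.963 and 0.786 CPM in control. Each control library was above each day 2 library. The log2 fold change was 0.84 (SE 0.33), with an adjusted p of 0.0401 that missed the threshold. Without day 2 replicate 3 it was 1.20 with an adjusted p of 0.0068. Esrrb was at 0.349, 0.280 and 0.452 CPM in iHoxc6, at 0.384, 0.467 and 0.438 CPM in iHoxc8, at 0.430, 0.765 and 0.756 CPM in iHoxc9 and at 0.525, 0.573 and 0.527 CPM in iHoxc10. The libraries of iHoxc6, iHoxc8 and iHoxc10 lay below those of control, and the libraries of iHoxc9 overlapped with them. Against control the log2 fold changes were -1.18 in iHoxc6 (SE 0.35, adjusted p = 0.0616), -0.92 in iHoxc8 (adjusted p = 0.0933), -0.59 in iHoxc10 (adjusted p = 0.224) and -0.31 in iHoxc9 (adjusted p = 0.515), and none passed. In mean level the order was control, iHoxc9, iHoxc10, day 2, iHoxc8 and iHoxc6, and every neighbouring pair in that order overlapped.

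**Figure D2:**
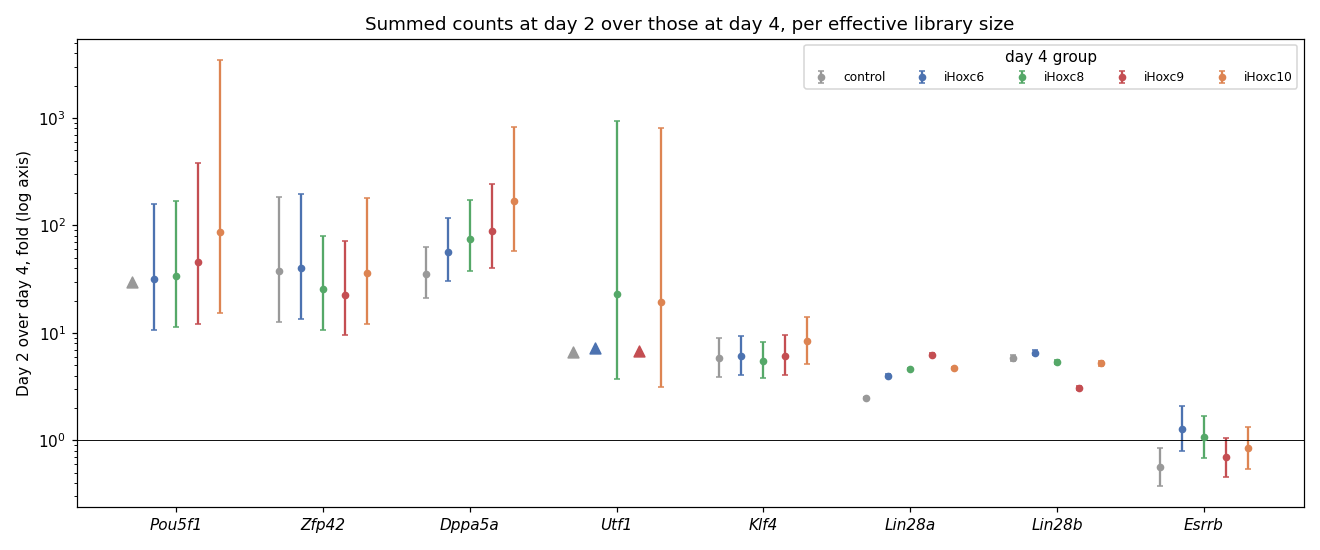
Fold of the summed counts at day 2 over those of each day 4 group, per effective library size (log axis), for 8 genes. Bars are exact 95% counting intervals and triangles are lower bounds where a day 4 group had 0 counts. Dppa5a spans 35.0-fold to 169-fold, Klf4 lies lower, and Esrrb lies around 1.

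Counted together, 7 of the 10 genes fell at an adjusted p under 0.01 in each comparison with day 2, and none rose. With an added log2 fold change under -2, the threshold of the study, the counts were 7 of 10 in iHoxc8 and in iHoxc10, and 6 in iHoxc6, in iHoxc9 and in control. Over all 20944 genes tested, the share that fell was 26.1% in iHoxc10, 23.9% in iHoxc6, 23.3% in iHoxc9, 22.3% in iHoxc8 and 21.2% in control. The share that passed the stricter rule was 9.59% in iHoxc10, 7.73% in iHoxc6, 7.59% in iHoxc9, 6.57% in iHoxc8 and 5.82% in control. In control 0 of the 10 genes rose by edgeR and by DESeq2 (1, Esrrb, at an unadjusted p under 0.05), compared with 21.2% of all genes. The 7 genes that fell were all above the floor in their day 2 mean, though Utf1 had only 3 counts in replicate 2. Nanog and Tdgf1 had too few counts for a fall to be detectable at this depth. All 5 comparisons share the day 2 libraries. The median log2 fold change of the 10 genes against day 2 ran from -2.78 in iHoxc8 to -3.30 in iHoxc9 and iHoxc10, and it was 0.0 over all genes. In each group Nanog or Tdgf1, with 3 and 4 counts at day 2, was a middle value of that median. Its size thus rests in part on genes near the floor. With genes at 0 counts in 1 group set at their bound, and genes at 3 counts or fewer in both set at 0, it ran from -2.44 to -2.71.

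Day 2 replicate 3 stood apart from the other progenitor libraries. Among the genes with at least 10 counts in these libraries, which leaves out Nanog and Tdgf1, it was the highest of the 3 for 7 of 8 genes (87.5%), compared with 42.4% of all 16481. Pou5f1 was 5.42 times, Utf1 3.48 times and Zfp42 2.00 times the higher of the other libraries there. Other genes of the naive network moved with them. Klf2, a Krüppel-like factor, was at 0.404, 0.200 and 1.66 CPM, and Tfcp2l1, another naive factor, was at 1.65, 1.80 and 4.00 CPM. The same library was highest in Foxa2, a floor plate and endoderm gene (19.7, 20.1 and 65.7 CPM), and lowest in Stmn2, a neuronal cytoskeleton gene (58.5, 89.3 and 29.6 CPM), and in Isl1, a MN factor (14.2, 19.7 and 5.40 CPM). Lin28b was lowest there as well. The summed endoderm markers were at 30.1 to 75.1 CPM at day 2, and Foxa2 made up most of that sum. The part of these markers in the result was not tested. Without day 2 replicate 3, 6 genes fell in each comparison at an adjusted p under 0.01, since Utf1 was lost, and 5 or 6 passed with the fold threshold. Esrrb then rose in control. The share of all genes that passed in that fit was not counted, so these counts have no share beside them.

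**Figure D3:**
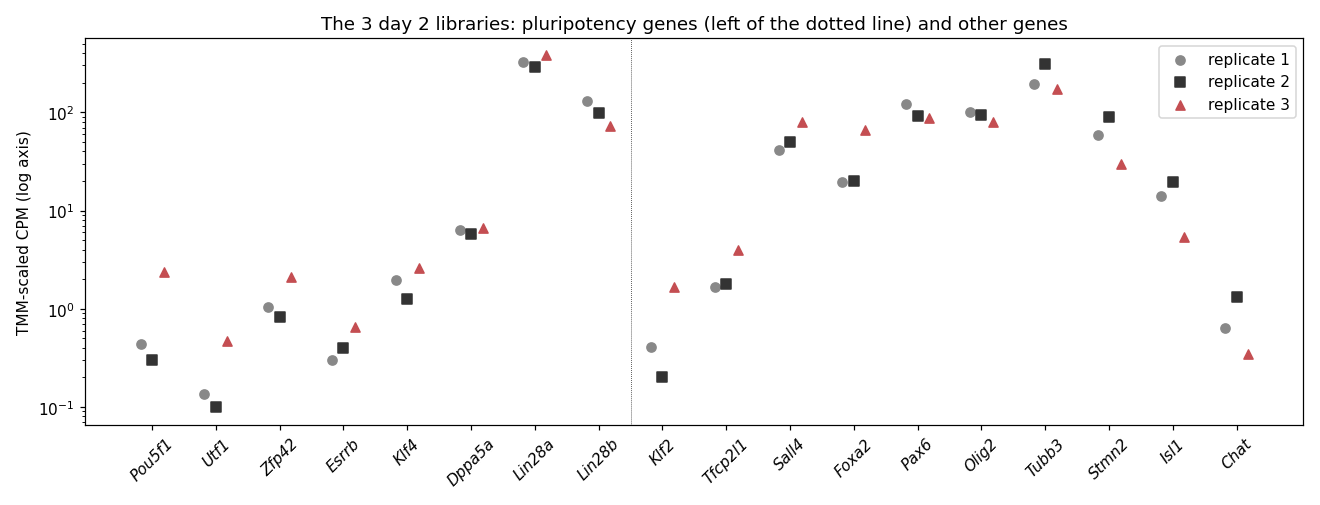
TMM-scaled CPM (log axis) of pluripotency genes, left of the dotted line, and of other genes in the 3 day 2 libraries. Replicate 3 is the highest for Pou5f1, at 2.37 against 0.300 and 0.438 CPM, and the lowest for Stmn2 and Isl1.

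The product of Pou5f1 reads an octamer-type sequence, and the promoter windows of the genes were searched for TTTGCAT on both strands. The RefSeq windows (GRCm38.p6) run from 250 bases before to 50 bases after the gene start, and 9 of the 10 genes had at least 1 window, 12 in all. The motif was in the windows of Nanog and Zfp42, and in 1520 of all 32851 windows (4.63%). The 250 bases upstream of both genes are shown because these are the genes whose windows hold the motif, which is in capitals. It starts 75 bases before the start of Nanog (chr6:122707239-122707488, plus strand) and 185 bases before that of Zfp42 (chr8:43307010-43307259, minus strand). Of these genes, Zfp42 fell along with Pou5f1 while Nanog was under the floor. A match is a description of the letters and not of binding.
Nanog: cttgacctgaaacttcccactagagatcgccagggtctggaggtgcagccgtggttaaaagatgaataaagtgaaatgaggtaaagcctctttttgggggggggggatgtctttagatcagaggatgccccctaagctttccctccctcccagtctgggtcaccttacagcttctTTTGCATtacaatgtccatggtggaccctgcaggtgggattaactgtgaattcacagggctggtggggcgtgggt
Zfp42: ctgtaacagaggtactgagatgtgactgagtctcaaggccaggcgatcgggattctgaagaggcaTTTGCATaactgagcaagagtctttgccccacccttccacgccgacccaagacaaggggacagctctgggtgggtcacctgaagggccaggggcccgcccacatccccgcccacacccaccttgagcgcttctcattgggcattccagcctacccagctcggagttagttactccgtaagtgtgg

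Lin28a (chr4:134003330-134019196) and Lin28b (chr10:45376617-45486314) were the 2 genes that stayed well expressed at day 4, and they did not move alike. Lin28a was at 323, 292 and 380 CPM at day 2 and at 102, 146 and 159 CPM in control. It was at 80.6, 77.0 and 92.7 CPM in iHoxc6, at 74.2, 60.0 and 80.5 CPM in iHoxc8, at 56.6, 48.0 and 57.2 CPM in iHoxc9 and at 66.9, 56.2 and 91.7 CPM in iHoxc10. All day 2 libraries were above all control libraries, and all control libraries were above all iHox libraries. The log2 fold change from day 2 was -1.29 in control (SE 0.18, adjusted p = 2.69e-06), -1.99 in iHoxc6, -2.21 in both iHoxc8 and iHoxc10, and -2.62 in iHoxc9.

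Lin28b was at 129, 98.9 and 73.2 CPM at day 2 and at 14.4, 22.9 and 14.7 CPM in control. It was at 16.2, 12.1 and 17.9 CPM in iHoxc6, at 19.5, 11.1 and 24.9 CPM in iHoxc8, at 39.6, 26.8 and 33.0 CPM in iHoxc9 and at 23.2, 16.8 and 17.4 CPM in iHoxc10. The iHoxc9 libraries were above all other day 4 libraries. The log2 fold change from day 2 was -2.54 in control (SE 0.26, adjusted p = 3.04e-08), -1.60 in iHoxc9, -2.39 in iHoxc10, -2.44 in iHoxc8 and -2.71 in iHoxc6. In the mean levels the order was day 2, iHoxc9, iHoxc10, iHoxc8, control and iHoxc6, and the last 4 of these overlapped in neighbouring pairs.

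Against control, 0 of the 10 genes passed the full threshold, a log2 fold change beyond 2 at an adjusted p under 0.01, in any iHox line, by edgeR and by DESeq2, compared with 2.70% of all genes in iHoxc9, 1.48% in iHoxc10, 0.220% in iHoxc8 and 0.115% in iHoxc6. At an unadjusted p under 0.05 with the same fold, the count was 1 in iHoxc10, Dppa5a, and 0 in the other lines. By the adjusted p alone, Lin28a fell in iHoxc8 (log2 fold change -0.92, SE 0.18, adjusted p = 0.00433), in iHoxc9 (-1.33, SE 0.18, adjusted p = 1.37e-05) and in iHoxc10 (-0.92, SE 0.18, adjusted p = 0.000755). That is 1 gene of 10 in each of these lines, where 1.09%, 7.13% and 7.75% of all genes fell. The call in iHoxc8 was lost in a fit of the compared libraries alone (0.0122) and without control replicate 3 (adjusted p = 0.0352), iHoxc8 replicate 1 (0.0231) or iHoxc8 replicate 2 (0.0120). In iHoxc6, the line of the control itself and in its run, Lin28a was at -0.70 (SE 0.18, adjusted p = 0.0388), and 0 of 10 genes fell by edgeR where 0.224% of all genes did (2 genes at an unadjusted p under 0.05, Lin28a and Esrrb, and 1 by DESeq2, Lin28a). Lin28a passed in iHoxc6 by edgeR as well without day 2 replicate 3. Whether induction itself or the line and run set the differences of iHoxc8, iHoxc9 and iHoxc10 from control cannot be told apart. Control had no Dox, so induction and Dox exposure cannot be told apart in any iHox group, iHoxc6 included.

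In the other direction, Lin28b rose in iHoxc9 (log2 fold change 0.93, SE 0.26, adjusted p = 0.00978), 1 of 10 genes where 6.95% of all genes rose. This call lay next to the threshold and was lost without any single iHoxc9 or iHoxc6 library, control replicate 1 or 3, day 2 replicate 2, iHoxc8 replicate 1, or iHoxc10 replicate 2 or 3, with adjusted p up to 0.0712 without control replicate 3. It was also lost in edgeR with the replicate number as a block, with DESeq2 size factors and with a stricter count filter. With the DESeq2 test itself, Lin28b passed. In iHoxc6, iHoxc8 and iHoxc10, 0 of 10 genes rose by edgeR and by DESeq2, compared with 0.363%, 1.03% and 6.67% of all genes. Lin28b differed from control there by -0.17, 0.10 and 0.14 on the log2 scale.

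The iHoxc9 and iHoxc10 libraries shared a run, and their equal replicate numbers deviated together over all genes (correlations 0.579, 0.474 and 0.651). Between them 0 of 10 genes were called by edgeR or by DESeq2 (2 at an unadjusted p under 0.05, Lin28a and Lin28b). Of all genes, 2.40% were lower in iHoxc9, 2.60% were higher, and 1.31% passed with the fold threshold. Lin28b was 0.79 higher in iHoxc9 on the log2 scale (SE 0.25, adjusted p = 0.0569) with no overlap of libraries, and Lin28a was -0.41 (SE 0.18, adjusted p = 0.211) with overlap. When the replicate number was a block, the adjusted p was 0.0575 for Lin28b and 0.135 for Lin28a. In a fit of these 6 libraries alone with that block, both passed (0.75, adjusted p = 2.74e-24, and -0.42, adjusted p = 7.74e-12), but this fit had 2 residual degrees of freedom and called 5790 genes. In a fit of the 6 libraries without the block, Lin28b was at 0.75 with an adjusted p of 0.00103.

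In the comparisons of the other iHox lines, which were added after the values were seen, Lin28b was higher in iHoxc9 than in iHoxc6 by 1.11 on the log2 scale (SE 0.26, adjusted p = 0.00344), the 1 gene of 10 that passed where 11.7% of all genes did. This call was lost without iHoxc6 replicate 1 or 2 or without iHoxc9 replicate 1 or 3 (adjusted p 0.0102 to 0.0381). Lin28a was -0.63 in iHoxc9 against iHoxc6 (adjusted p = 0.0159), and it passed with the replicate number as a block (-0.63, adjusted p = 0.00485), by DESeq2, with all counted genes and in a fit of the compared libraries alone. It also passed without any single day 2 library, control replicate 3, iHoxc8 replicate 2, or iHoxc10 replicate 2 or 3. For iHoxc9 against iHoxc8, 0 of 10 genes passed and 5.37% of all genes did, and Lin28b was at 0.84 (SE 0.25, adjusted p = 0.0421), and at 1.10 and past the threshold without iHoxc8 replicate 3. That comparison had 2 genes at an unadjusted p under 0.05 and 0 by DESeq2. The remaining pairs, iHoxc8 against iHoxc6, iHoxc10 against iHoxc6 and iHoxc10 against iHoxc8, had 0 of 10 genes by edgeR, by DESeq2 and at an unadjusted p under 0.05, while 3.55%, 11.0% and 2.93% of all genes passed.

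The balance of the paralogs was read within each library as the log2 ratio of Lin28a to Lin28b counts, which does not depend on scaling between libraries. It was 2.98 ± 0.40 (SD, n = 3) in control, 2.45 ± 0.19 in iHoxc6, 2.02 ± 0.38 in iHoxc8, 1.89 ± 0.45 in iHoxc10, 1.75 ± 0.55 at day 2 and 0.72 ± 0.18 in iHoxc9. The 3 iHoxc9 libraries were at 0.52, 0.84 and 0.80, below the other 15 libraries. With 3 libraries in a group, the exact permutation test (two-sided) cannot go below p = 0.1, which it gave for iHoxc9 against each other group, adjusted to 0.167 over 15 comparisons. The ratio was also lower in each iHox line than in control without overlap, at the same p. This measure was chosen after the levels were seen. The ratio of counts is not a ratio of molecules, since the exons of Lin28b are longer in all (9065 bases against 3996).

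**Figure D4:**
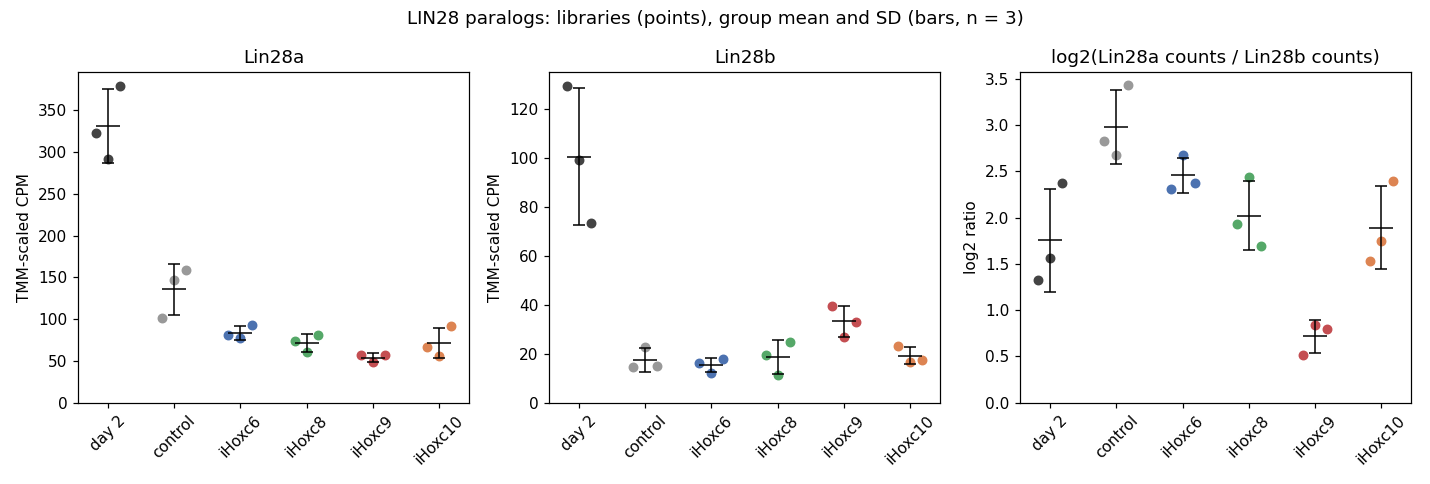
Lin28a and Lin28b in TMM-scaled CPM and the log2 ratio of their counts in 18 libraries. Points are libraries, and bars are the mean and SD of 3. The ratio in iHoxc9 is 0.52 to 0.84, below every other library.

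LIN28 proteins act on the precursors of let-7 microRNAs, whose 3′ side of the loop holds GGAG in most family members. The sequences are shown because the paralogs share this target and the pathway genes below are known as its targets or partners. In RefSeq (GRCm38.p6), 9 of 12 mouse let-7 hairpins had GGAG between the arms and 3 did not. The mature let-7g (chr9:106178846-106178867, plus strand) is given with its seed, bases 2 to 8, in capitals. A hairpin with GGAG, in capitals, is given next to 1 without it. Polyadenylated RNA does not report mature microRNAs, and no let-7 hairpin gene had more than 34 counts in a library, so let-7 itself was not measured.
mmu-let-7g-5p: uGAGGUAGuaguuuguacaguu
Mirlet7g: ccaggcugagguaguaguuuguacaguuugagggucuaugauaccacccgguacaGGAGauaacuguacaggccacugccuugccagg
Mirlet7b: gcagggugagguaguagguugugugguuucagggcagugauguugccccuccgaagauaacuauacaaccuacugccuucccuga

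Of 20 genes of the LIN28 and let-7 pathway, all of which were tested, 12 fell and 1 rose from day 2 to control, with a median log2 fold change of -0.76 compared with 0.0 over all genes, of which 21.2% fell and 21.2% rose. Prtg, an immunoglobulin superfamily receptor of early neural tissue, had the largest fall, from a mean of 399 CPM to 54.7 CPM (log2 fold change -2.87, SE 0.31). Trim71, an RNA-binding ubiquitin ligase and a let-7 target, fell by 2.43 on the log2 scale, from 44.5 to 8.29 CPM. Ccnd1, which encodes cyclin D1, fell by 2.33, from 131 to 26.0 CPM. The gene that rose was Dis3l2, the exonuclease that degrades uridylated pre-let-7, at 0.77 (SE 0.17, adjusted p = 0.000664).

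Against control, 0 of these 20 genes changed in iHoxc6 and iHoxc8, 2 fell in iHoxc10, and 3 rose and 4 fell in iHoxc9. Of all genes, 7.75% fell in iHoxc10, close to the share of the list, and 6.95% rose and 7.13% fell in iHoxc9. In iHoxc6 0.224% of all genes fell and 0.363% rose, and in iHoxc8 1.09% fell and 1.03% rose. The genes that rose in iHoxc9 were Hmga2, a chromatin architectural gene and classical let-7 target (29.4 CPM against 13.4 CPM, log2 fold change 1.13, SE 0.21), Tut4, a terminal uridylyltransferase that works with LIN28A (0.93, SE 0.21), and Igf2bp2, an mRNA-binding gene (0.90, SE 0.18). Those that fell were Ccnd1 (1.02 CPM against 26.0 CPM, log2 fold change -4.64, SE 0.29), Mycn (-1.09, SE 0.14), Prtg (-1.17, SE 0.30) and E2f5, a cell cycle factor (-0.82, SE 0.22). In iHoxc10, Prtg fell by 1.24 and E2f5 fell by 0.88. The let-7 targets of the list thus went in both directions in iHoxc9. Against iHoxc10, with which it shared a run, iHoxc9 was higher in Hmga2 (1.56, SE 0.21) and Igf2bp2 (0.87, SE 0.18) and lower in Ccnd1 (-4.02, SE 0.29) and Mycn (-1.28, SE 0.14). Markers of neural progenitors also moved in iHoxc9 against control, where 3 of 8 rose (Sox1, Sox2 and Nkx2-2) and 2 fell (Olig2 and Hes5), and their summed level was 571 to 622 CPM in iHoxc9 and 315 to 662 CPM in control. Of 10 neuron markers, 4 fell in the same comparison, the MN factor genes Mnx1 and Lhx3 and the cholinergic genes Chat and Slc18a3, and 1 rose, Map2 (median -0.71). Their summed level was 5437 to 6399 CPM in iHoxc9 and 5344 to 5797 CPM in control. Against iHoxc10, 4 neuron markers were lower in iHoxc9 (Isl1, Mnx1, Chat and Slc18a3), where 2.40% of all genes were. In that comparison 3 of 8 neural progenitor markers were higher in iHoxc9 and 0 were lower (median 0.61), where 2.60% of all genes were higher. The part of these markers in the LIN28 results was not tested.

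**Figure D5:**
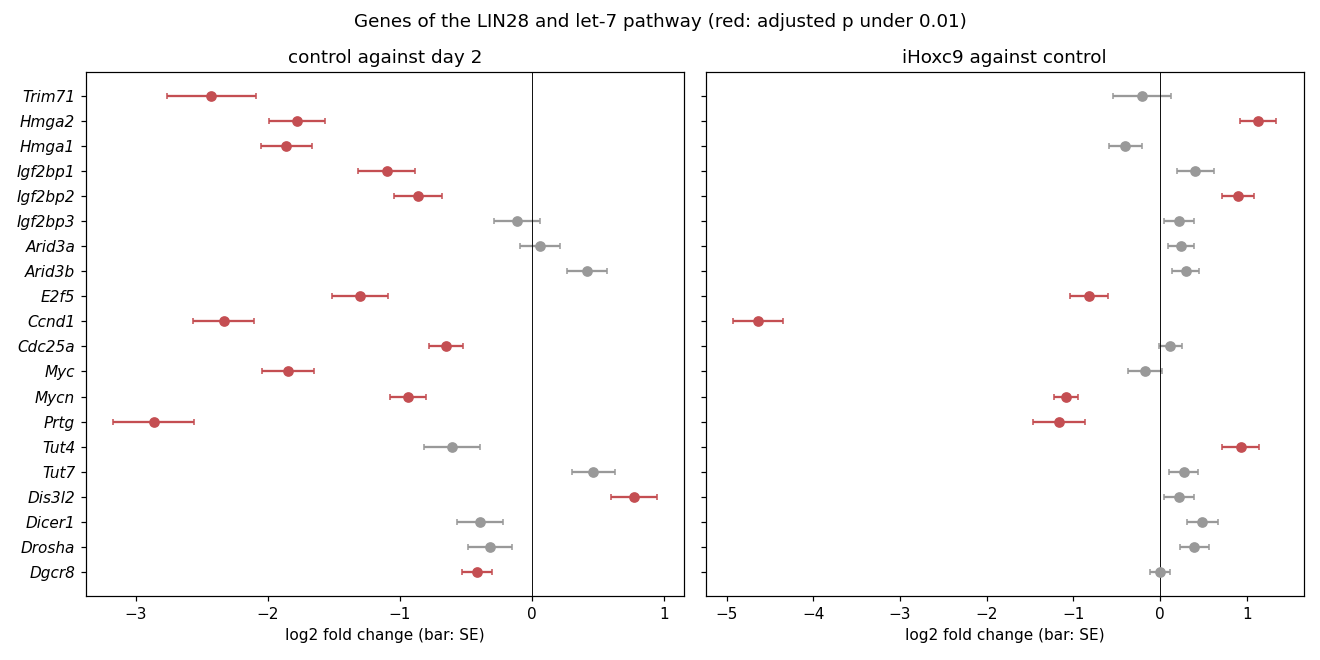
Log2 fold changes (bars are the SE) of genes of the LIN28 and let-7 pathway in control against day 2 and in iHoxc9 against control, with an adjusted p under 0.01 in red. In the second panel Ccnd1 stands at -4.64 and Hmga2 at 1.13.

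Of 22 further genes of the naive network, 19 could be tested. From day 2 to control 10 fell and 2 rose, where 21.2% of all genes went each way. The median was -2.61. It was -1.66 with genes at 0 in 1 group set at their bound and genes at 3 counts or fewer in both set at 0. Fgf4 had counts at day 2 but none in any day 4 group, so it was not tested. L1td1, an RNA-binding gene of ESCs, was at 1.17 CPM on average at day 2 and had 0 counts in control. Dnmt3l, a DNA methyltransferase cofactor, was at 0.314 CPM at day 2 and had 0 counts in control. Dppa4 fell from 4.91 to 0.119 CPM (log2 fold change -5.31, SE 0.50). The genes that rose were Jam2 (1.63, SE 0.17) and Tbx3 (1.10, SE 0.35), and Tbx3 also serves outside the network. Against control, 0 of the 19 changed in iHoxc6, where 0.224% of all genes fell and 0.363% rose. Sox2, a factor shared by ESCs and neural progenitors, rose in iHoxc8 (0.72) and iHoxc9 (1.10, SE 0.14), where its mean was 85.1 CPM against 39.7 CPM in control. Jam2, an adhesion gene, rose in iHoxc9 (1.94, SE 0.17) and iHoxc10 (0.77, SE 0.16), and Mybl2, a cell cycle factor, fell in iHoxc10 by 0.91.

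Genes of the formative and primed epiblast, the state after naive pluripotency, were mixed. Of 10 genes 9 were tested, and 3 rose and 4 fell from day 2 to control, compared with 21.2% of all genes each way. Otx2 was not tested, since it had counts at day 2 and in control but none in the iHox lines. Pou3f1, a POU factor also used in MN subtypes, rose from 2.31 to 17.7 CPM (2.94, SE 0.21), Foxd3 rose by 2.47 and Fgf5 by 1.17, and Zic2 fell from 6.94 to 0.569 CPM (-3.61, SE 0.35). Against control, Dnmt3a, a de novo DNA methyltransferase, rose in iHoxc9 (1.30, SE 0.17) and in iHoxc10 (0.95, SE 0.17), Foxd3 rose in iHoxc10 (2.01, SE 0.48), and Pou3f1 fell in iHoxc9 by 1.20. None of the 9 changed in iHoxc6 or iHoxc8. The shares of all genes there were 0.224% lower and 0.363% higher in iHoxc6, and 1.09% lower and 1.03% higher in iHoxc8. For Nodal signalling, the pathway of the Tdgf1 product, 13 of 15 genes were tested, and the others had no counts in any iHox library. Among them, the transcription factor gene Foxh1 fell from day 2 to control (-3.24, SE 0.39) and the receptor gene Acvr1b rose (1.87, SE 0.12). In iHoxc10 against control Acvr1b (0.61, SE 0.12) and Acvr2a (0.84, SE 0.23) rose, and none of the 13 changed in iHoxc6, iHoxc8 or iHoxc9. Of all genes, 6.67% rose in iHoxc10, and 6.95% rose and 7.13% fell in iHoxc9.

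Markers of other cells were read in the same libraries, and from day 2 to control 21.2% of all genes fell and 21.2% rose. Mesoderm and primitive streak genes were under 1 CPM in sum in every library, with Mixl1, Eomes and Mesp1 at 0 in control. Endoderm genes fell in 4 of 5 tested cases from day 2 to control, among them Sox17 and Gata4, and Foxa2, which is also a floor plate gene, was not among them. Of 5 germ cell markers 3 fell and 1 rose, and the germ cell marker Dppa3 was at 0 counts in every library. Of 8 neural progenitor markers 3 fell (Pax6, Sox1 and Sox2) and 1 rose (Nkx2-2).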

How the data were processed

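RNA-seq counts were analysed for 18 libraries of mouse embryoid bodies. The authors aligned reads of polyadenylated RNA to mm10 with STAR (2.7.0c), counted them per RefSeq gene with featureCounts, merged genes that share an Entrez identifier and deposited the raw count of each library; the strand setting and the handling of reads with several alignments are not given in the sources used here. Reads of Pou5f1, Nanog and Dppa5a can be shared with related pseudogenes, so these counts are uncertain by that much. Symbols were found for 25275 of 27179 identifiers in RefSeq (GRCm38.p6), and all count columns were used. The replicate numbers come from the labels.

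Counts were TMM-scaled, and edgeR 4.0.16 in R 4.3.3 tested them (quasi-likelihood test, Benjamini-Hochberg adjustment) in 1 fit of all libraries. The fit held 20944 genes, those counted at least once in an iHox library. Genes counted only at day 2 or in control, such as Fgf4 and Otx2, were therefore not tested. Genes rose or fell at an adjusted p under 0.01, and the full threshold added a log2 fold change beyond 2. A fold of summed counts has an exact 95% interval, and against 0 counts it is a bound from 3 counts. DESeq2 1.42.0 (the authors used 1.20.0), other scalings and filters, fits of the compared libraries alone, a replicate block and leaving out each library were the alternatives. Exact permutation tests used scipy 1.17.1. The code was tested on simulated data.

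Equal replicate numbers deviated together (every correlation over 0.1) between iHoxc9 and iHoxc10, between iHoxc8 and iHoxc6 (0.287 to 0.630) and between iHoxc9 and iHoxc6 (0.117 to 0.215), but not in the other comparisons. No libraries were duplicates: chi-square per degree of freedom between replicates was 7.14 to 251. All 10 genes were named in every group. From each list of naive, formative, Nodal and LIN28 genes, up to 3 genes with the largest passing changes from day 2 to control and up to 3 from control to an iHox line were named, and further genes that passed were named after their values were seen. The 10 genes and the lists were chosen with earlier results of these data known. The values of 1 gene of the Nodal signalling list are not reported here.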

Additional observations from a re-analysis of the deposited data

Results flagged for a closer look

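Lin28b was singled out because the iHoxc9 and iHoxc6 lines differed in it by the test of the difference itself, with a log2 fold change of 1.11 (SE 0.26, edgeR adjusted p = 0.00344) and all 3 iHoxc9 libraries above all 3 iHoxc6 libraries. The lines were sequenced in different runs, so line and run cannot be told apart in it. The comparison was added after the values were seen. Its call was lost without iHoxc6 replicate 1 or 2 or without iHoxc9 replicate 1 or 3.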

How the results depend on the processing

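Of 1861 alternative values of a log2 fold change, 1760 kept their direction and their side of the threshold, 45 lost the call, 18 gained it and 38 changed sign, and 60 of 60 alternative group levels moved by less than the spread between libraries. No undifferentiated ESC sample, 3 counts of Nanog and 4 of Tdgf1 at day 2 in all, 3 libraries in a group, and day, line and run that coincide limit what these values can show. The falls of Pou5f1, Zfp42, Dppa5a, Klf4, Lin28a and Lin28b from day 2 passed in every alternative that tested them, whereas that of Utf1 did not. The filter of at least 10 counts in at least 3 libraries left out Pou5f1 and Utf1, so they were not tested under it. The causes of the changes below were not tested.

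With a log2 fold change over 1 as the threshold, 1 gene (Lin28a) was called in iHoxc9 against control, and with no such threshold 2 were, with 1 each in iHoxc8 and iHoxc10. Leaving out libraries, the count in iHoxc10 was 0 to 1, and the 1 gene was Dppa5a, without control replicate 1. With 2 CPM in place of 1 CPM, 3 genes reached the level at day 2. Lin28a in iHoxc10 against iHoxc8, at -0.00, was at 0.0458 with DESeq2 size factors, 0.0460 with the DESeq2 test, 0.0221 with all counted genes and 0.0226 with the compared libraries alone, and at -0.19 to 0.17 when leaving out libraries.

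The other changes of sign came from leaving out 1 library, and none of these values passed. Tdgf1 against day 2 ran from -3.49 to 1.92 in control, from -3.47 to 1.78 in iHoxc8 and from -4.02 to 0.0 in iHoxc6, iHoxc9 and iHoxc10, the upper value in each without day 2 replicate 3. Esrrb against day 2 ran from -0.55 to 0.0265 in iHoxc6 and from -0.33 to 0.28 in iHoxc8. Lin28b against control ran from -0.30 to 0.0787 in iHoxc6, from -0.22 to 0.35 in iHoxc8 and from -0.0183 to 0.39 in iHoxc10. Klf4 against control ran from -0.75 to 0.34 in iHoxc6, from -0.0814 to 0.35 in iHoxc8 and from -0.25 to 0.20 in iHoxc9. Lin28b ran from -0.0472 to 0.49 in iHoxc8 against iHoxc6 and from -0.18 to 0.33 in iHoxc10 against iHoxc8.

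With the replicate number as a block, Lin28b in iHoxc9 against control was at 0.89 and lost its call, and Lin28a in iHoxc9 against iHoxc6 was at -0.63 and gained one. The block changed no other call in the fit of all libraries.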

Other observations

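Genes were ranked by how closely their log2(CPM + 1), centred on each gene's mean, followed that of 3 of the genes over 18 libraries, among the 13192 genes with a mean of at least 1 CPM. The measure is the root mean square of the difference, and the libraries share their groups and runs, so it is a description. Nearest to Pou5f1 were Tapbp (0.111), which encodes the peptide loading chaperone tapasin, Myo1c (0.130), an unconventional myosin gene, Relb (0.160), an NF-kB gene, and Adcy3 (0.167), an adenylyl cyclase gene. Since 77.6% of the day 2 counts of Pou5f1 came from replicate 3, its ranking rests largely on that library. Nearest to Lin28a were Nr6a1 (0.233), which encodes the nuclear receptor GCNF, Gas1 (0.253), a Hedgehog co-receptor gene, Plscr1 (0.257) and Mgmt (0.276). Nearest to Lin28b were Six4 (0.213), a homeobox gene, Ddias (0.253), Cenpf (0.280), a kinetochore gene, and Lrp2 (0.291), an endocytic receptor gene.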
